A study of Mus musculus with 40 samples.

Results

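The 35 genes described here encode proteins of the endoplasmic reticulum (ER) that fold, inspect or discard newly made secretory proteins, together with the regulators of their synthesis. They were taken by gene symbol from a list of chaperones, lectins, oxidoreductases, ER-associated degradation factors and stress-signalling genes, and all 35 were present among the 32531 gene rows of the count tables. The RNA came from translating ribosome affinity purification (TRAP) of mice carrying the transgene Tg(Aldh1l1-EGFP/Rpl10a)JD130Htz, in which the astrocyte promoter Aldh1l1 drives an EGFP-tagged ribosomal protein, so that ribosome-bound RNA of astrocytes can be pulled down with anti-EGFP antibodies. Stressed (susceptible) mice had gone through chronic social defeat, 10 days with 10 minutes of daily contact with a CD1 aggressor, and then scored below 1 on a social interaction index. Resilient mice had the same defeats and scored above 1. Control mice carried the same transgene, were group housed in the same room and were not defeated. Tissue was taken 2 days after the last defeat. Each library was a pool of 2 mice for the prefrontal cortex (PFC), hippocampus (HIP) and caudate putamen (CPU), or of 4 to 6 mice for the nucleus accumbens (NAC). There were 5 stressed, 4 resilient and 3 control libraries of the PFC, 5 stressed, 3 resilient and 3 control of the HIP, 4 stressed, 3 resilient and 3 control of the NAC, and 3 stressed, 2 resilient and 2 control of the CPU. The age of the mice is not given in the sources used here, and unpurified input RNA was not analysed here.

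Secretory and membrane proteins enter the ER lumen unfolded. Hsp70- and Hsp90-type chaperones hold them there, lectins of the calnexin cycle retain glycoproteins until they fold, and protein disulfide isomerases form and reshuffle their disulfide bonds. Proteins that fail are marked by mannosidase-like proteins, passed through a membrane ubiquitin ligase complex and destroyed by proteasomes in the cytosol. When unfolded proteins accumulate, the ER membrane sensors Ire1 (Ern1), Atf6 and Perk start the unfolded protein response: Ire1 splices Xbp1 mRNA, Atf6 is cut to release a transcription factor, and Perk favours translation of Atf4, which raises Ddit3 (Chop) under prolonged stress. Astrocytes secrete lipoproteins, matrix proteins and growth factors, and so use this machinery continuously.

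Libraries held 21.3 to 33.0 M counts in genes, with a median of 25.6 M. The label was checked against cell type markers. The summed level of 16 astrocyte markers was 31880 to 77631 counts per M (CPM) in the 40 libraries, against 1524 to 8590 CPM for 16 neuronal markers, so RNA of neuronal marker genes was also present. Some libraries stood apart from others of their own group. The deposited files name a region either by 3 letters or by 1 letter; this naming form is not stated to be a batch, but it is spread unevenly over the groups. In the PFC, stressed replicates 1 to 3 have the 1-letter form and replicates 4 and 5 the 3-letter form. Deviations from the region's mean correlated with exon length across 13110 genes at r = 0.505 and 0.437 in PFC stressed replicates 4 and 5, against -0.337 to 0.00503 in the other 10 PFC libraries. The same correlation was 0.434 and 0.513 in HIP stressed replicates 2 and 3 and 0.433 in NAC stressed replicate 4, all 3 of the 3-letter form, but also 0.43 in CPU stressed replicate 3, of the 1-letter form. All these libraries are stressed ones, and the highest value in a resilient or control library was 0.263, in CPU resilient replicate 1. HIP stressed replicate 1, also of the 3-letter form, was at -0.283. The trend thus runs partly with condition, and its part in the differences between conditions was not tested outside the PFC. Genes are not independent replicates, and these values are descriptions only.

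In the prefrontal cortex, ER folding genes were higher in stressed libraries than in both other groups. Of the 35 genes, 24 were higher in stressed than in control libraries and none was lower (edgeR quasi-likelihood test, Benjamini-Hochberg adjusted p under 0.05 over all 15491 genes tested). Among all genes tested, 16.4% were called higher and 11.7% lower. The median log2 fold change was 1.05 over the 35 genes and 0.04 over all genes. Against resilient libraries 24 of the 35 were again higher and none lower, where 14.3% of all genes were called higher and 10.7% lower, with a median of 0.85 over the 35 and 0.03 over all genes. Both comparisons use the same 5 stressed libraries and are not independent of each other. They had 23 called genes in common; Creld2 was called against control libraries only and Dnajb9 against resilient libraries only, with adjusted p-values of 0.051 and 0.0517 in the other comparison, so neither gene is shown to differ between them. Every stressed library lay above every control library for 23 of the 35 genes (15.2% of all genes), and above every resilient library for 17 (11.2% of all genes). Within a bulk pull-down, more cells of a type and more RNA per cell cannot be told apart.

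**Figure D1:**
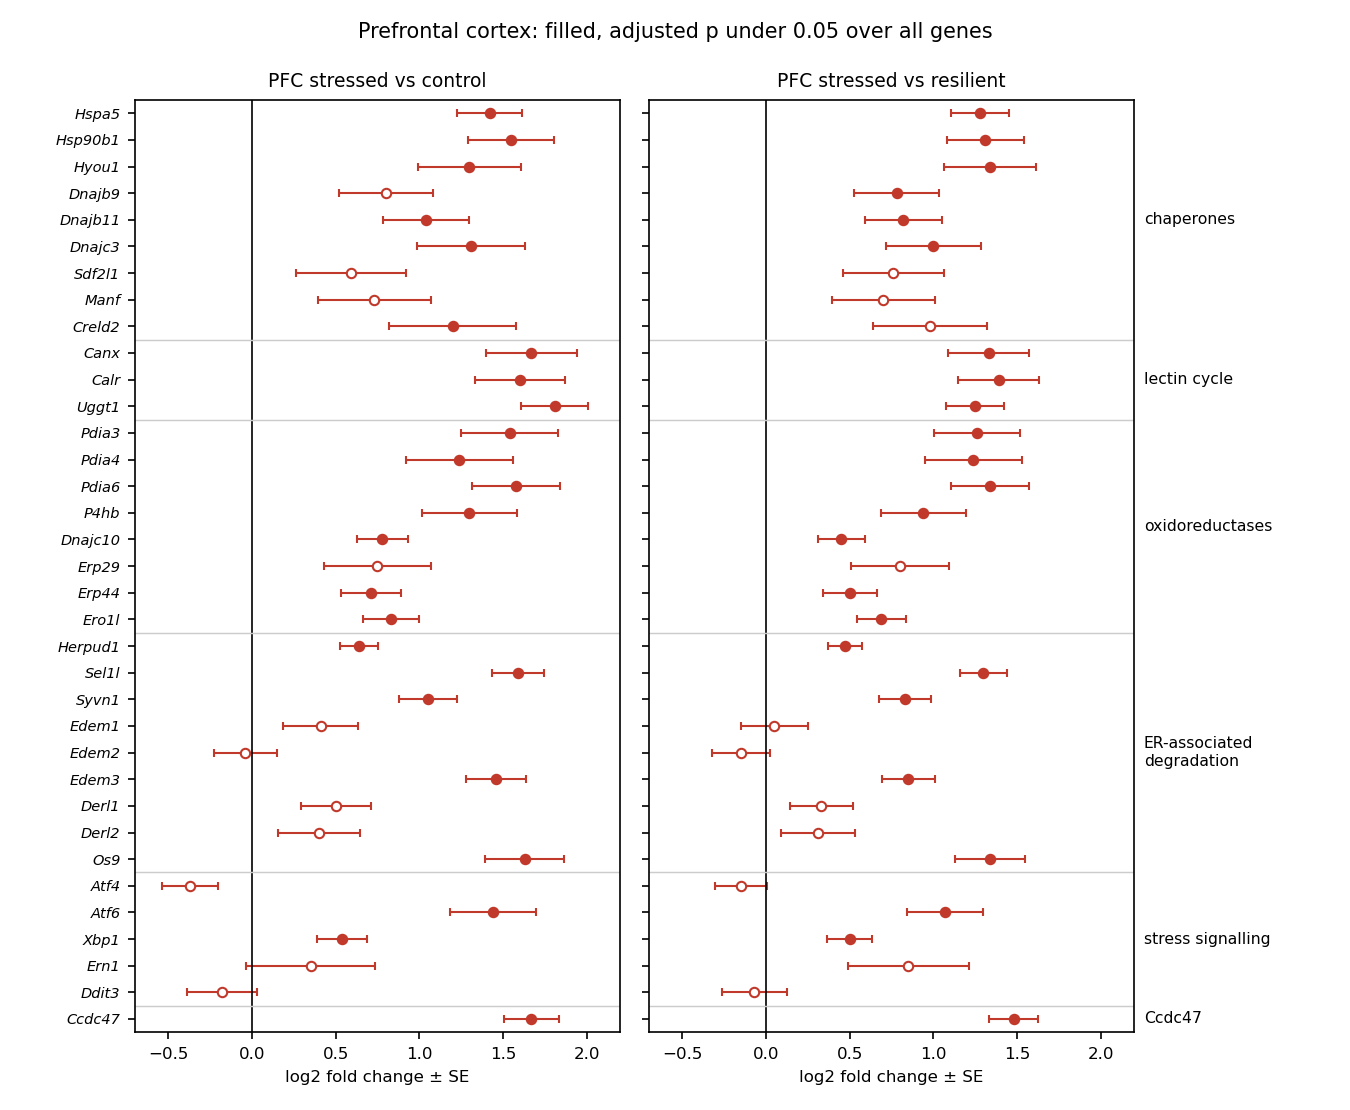
Log2 fold change ± SE of each of the 35 genes in the prefrontal cortex, stressed against control (left) and stressed against resilient (right), ordered by role; filled points passed adjusted p under 0.05 over all genes. The 24 filled points of each panel all lie above 0, with Uggt1 the farthest at 1.81 on the left.

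The 8 genes with the smallest p against control libraries were Sel1l (chr12:91806043-91849157, minus strand), Ccdc47 (chr11:106197408-106216344, minus strand), Uggt1 (chr1:36140027-36244720, minus strand), Edem3 (chr1:151755371-151822051, plus strand), Hspa5 (chr2:34771970-34777547, plus strand), Os9 (chr10:127095650-127121131, minus strand), Canx (chr11:50293961-50325673, minus strand) and Syvn1 (chr19:6046576-6053712, plus strand), with coordinates of GENCODE M21 on GRCm38. Promoter windows of RefSeq (GRCm38.p6, 250 bases before to 50 after the start site) were searched on both strands for the ER stress elements to which Atf6 and Xbp1 are known to bind. The type I element was written as CCAAT and CCACG with 9 bases of any kind between them, the type II element as ATTGG, 1 base and CCACG. No match of one type overlapped a match of the other. Of the 35 genes, 30 had a window; Hyou1, Erp29, Derl1, Manf and Atf6 had none. Type I was found in 8 of the 30 (26.7%) and type II in 2 of the 30 (6.67%), against 0.137% and 0.0444% of all 27025 genes with a window. The elements are known from ER stress genes, the kind listed here, so this contrast is a description and not a test. The windows of Hspa5, Canx and Syvn1, the 3 of the 8 genes above that hold an element, are shown 5′ to 3′ on the gene's own strand, with the element in capitals, because they let the matched letters be seen in their place.
Hspa5, chr2:34771840-34772139: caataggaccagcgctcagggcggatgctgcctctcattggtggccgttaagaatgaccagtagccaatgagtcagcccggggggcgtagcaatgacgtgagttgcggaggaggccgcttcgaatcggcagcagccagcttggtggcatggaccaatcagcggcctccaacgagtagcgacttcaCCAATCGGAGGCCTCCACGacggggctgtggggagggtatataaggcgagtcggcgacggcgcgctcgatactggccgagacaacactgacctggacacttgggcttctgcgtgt
Canx, chr11:50325624-50325923: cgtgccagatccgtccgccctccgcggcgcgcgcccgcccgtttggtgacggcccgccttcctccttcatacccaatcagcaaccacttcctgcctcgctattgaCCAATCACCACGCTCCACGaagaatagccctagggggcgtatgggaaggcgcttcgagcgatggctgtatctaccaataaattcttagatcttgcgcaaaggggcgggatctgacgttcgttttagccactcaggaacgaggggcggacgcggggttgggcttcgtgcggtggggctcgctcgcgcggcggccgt
Syvn1, chr19:6046326-6046625: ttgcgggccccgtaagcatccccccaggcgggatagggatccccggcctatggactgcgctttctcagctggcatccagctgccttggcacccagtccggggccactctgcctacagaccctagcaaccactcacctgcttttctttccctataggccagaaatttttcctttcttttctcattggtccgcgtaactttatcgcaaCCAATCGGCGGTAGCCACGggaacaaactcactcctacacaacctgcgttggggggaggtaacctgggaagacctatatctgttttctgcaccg
The remaining 5 of the 8, Sel1l, Ccdc47, Uggt1, Edem3 and Os9, held neither element in this window, which says only that these letters are not there.

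All 11 matched elements in the 30 windows are given next, with their first and last base counted from the start site (1 is the first transcribed base, -1 the base before it) and with the fixed letters in capitals. A match on the reverse strand reads as the complement.
Hspa5 (type I, forward, bases -65 to -47): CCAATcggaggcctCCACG
Hsp90b1 (type I, forward, bases -212 to -194): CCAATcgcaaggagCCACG
Hsp90b1 (type I, reverse, bases -107 to -89): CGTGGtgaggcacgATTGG
Dnajb11 (type II, forward, bases 8 to 18): ATTGGcCCACG
Dnajc3 (type I, forward, bases -105 to -87): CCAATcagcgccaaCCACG
Creld2 (type I, reverse, bases -126 to -108): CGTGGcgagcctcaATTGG
Canx (type I, forward, bases -145 to -127): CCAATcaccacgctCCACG
Calr (type I, reverse, bases -162 to -144): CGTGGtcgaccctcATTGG
Pdia6 (type I, forward, bases -98 to -80): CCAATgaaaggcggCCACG
Herpud1 (type II, forward, bases -52 to -42): ATTGGgCCACG
Syvn1 (type I, forward, bases -44 to -26): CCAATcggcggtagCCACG
Hsp90b1 holds a pair of type I elements on opposite strands, and every other gene of the 10 holds one. In the PFC all 10 genes with an element were higher in stressed than in control libraries, with log2 fold changes of 0.64 to 1.67 and a median of 1.36. Of the 20 genes with a window and no element, 12 were higher, with a range of -0.37 to 1.81 and a median of 0.79. Against resilient libraries 9 of the 10 and 13 of the 20 were higher. These counts describe the listed genes, beside 16.4% of all genes called higher against control and 14.3% against resilient libraries. Genes outside the list that hold an element were not counted. The difference between the 2 sets was not tested, and a match is not evidence of binding.

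Luminal chaperones come first by role, and 6 of 9 were higher in stressed than in control libraries. Hspa5 (BiP), the Hsp70 of the ER and the chaperone that holds the stress sensors inactive, had 170, 184, 166, 114 and 140 CPM in stressed libraries, 57.4, 58.2, 63.8 and 77.3 CPM in resilient libraries and 44.3, 59.6 and 68 CPM in control libraries. All 5 stressed libraries lay above all 7 others. The log2 fold change was 1.42 ± 0.196 (adjusted p = 0.000952) against control and 1.28 ± 0.175 (adjusted p = 0.000961) against resilient libraries, each ± SE. Hsp90b1 (Grp94), the ER Hsp90, had 121, 119, 100, 68.9 and 71.7 CPM in stressed libraries, 31, 34.5, 37.7 and 52.7 CPM in resilient libraries and 25.7, 32.5 and 39.7 CPM in control libraries, again without overlap, and a log2 fold change against control of 1.55 ± 0.258 (adjusted p = 0.00193). Hyou1, a large Hsp70-like nucleotide exchange factor for Hspa5, was low in these libraries: 7.04, 4.71, 5.48, 7.53 and 7.01 CPM in stressed libraries, 1.09, 3.04, 2.6 and 3.32 CPM in resilient libraries and 2, 2.38 and 3.24 CPM in control libraries. It was higher against control by 1.30 ± 0.306 (adjusted p = 0.00979) on the log2 scale. The J-domain co-chaperones stimulate Hspa5. Dnajb11 had 50.3, 51.3, 54.1, 27.7 and 30.2 CPM in stressed libraries, 20.7, 22.1, 27 and 27.9 CPM in resilient libraries and 16.3, 26.1 and 19.5 CPM in control libraries, and Dnajc3, which also restrains Perk, had 60.8, 53.9, 61.7, 23.1 and 27.8 CPM in stressed libraries, 18.6, 21.1, 27.9 and 24.7 CPM in resilient libraries and 17.2, 20.6 and 17.2 CPM in control libraries. Stressed replicate 4 lay below the highest resilient library for both genes, and replicate 5 lay below it for Dnajc3. Their log2 fold changes against control were 1.04 ± 0.257 (adjusted p = 0.0117) and 1.31 ± 0.321 (adjusted p = 0.0116).

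The remaining 4 luminal genes split the stressed libraries. Dnajb9 (ERdj4), a J-domain protein that returns Hspa5 to Ire1, had 30.6, 33.6, 31.8, 14.7 and 16.7 CPM in stressed libraries, 12.8, 13.1, 15.9 and 18.1 CPM in resilient libraries and 13.1, 17 and 13.8 CPM in control libraries. Sdf2l1, a component of Hspa5 complexes, had 17.1, 20.3, 20.1, 7.44 and 8.28 CPM in stressed libraries, 7.32, 8.55, 10.1 and 9.24 CPM in resilient libraries and 8.01, 11.4 and 9.81 CPM in control libraries. Manf, a secreted Hspa5-binding neurotrophic protein, had 54.4, 49.9, 49.5, 19.1 and 20.9 CPM in stressed libraries, 19.8, 21.9, 29.4 and 25.6 CPM in resilient libraries and 21.1, 24.9 and 23.9 CPM in control libraries. For all 3, stressed replicates 1 to 3 lay above every other PFC library and replicates 4 and 5 lay within or below the range of the resilient libraries. Creld2, a secreted ER stress-responsive disulfide isomerase-like protein, had 31.4, 35, 30.4, 11.8 and 15.2 CPM in stressed libraries, 7.92, 12.2, 15.1 and 15.6 CPM in resilient libraries and 7.76, 14.8 and 9.92 CPM in control libraries, and replicates 4 and 5 lay inside the range of the other groups. The log2 fold changes against control were 0.80 ± 0.283 (adjusted p = 0.0517) for Dnajb9, 0.59 ± 0.329 (adjusted p = 0.193) for Sdf2l1 and 0.73 ± 0.338 (adjusted p = 0.118) for Manf. Creld2 passed at 1.20 ± 0.381 (adjusted p = 0.0348).

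All 3 genes of the calnexin cycle were higher in both comparisons. Canx, the membrane lectin that holds monoglucosylated glycoproteins, had 174, 170, 169, 98.7 and 106 CPM in stressed libraries, 45.3, 48.3, 59.5 and 77.7 CPM in resilient libraries and 34.9, 42.7 and 56.7 CPM in control libraries. Calr, its soluble counterpart and a calcium store of the ER lumen, had 207, 229, 210, 127 and 133 CPM in stressed libraries, 56.5, 60.7, 69 and 93.2 CPM in resilient libraries and 42.7, 60.4 and 74.8 CPM in control libraries. Uggt1, the folding sensor that puts a glucose back on misfolded glycoproteins so that they re-enter the cycle, had 12.3, 10.7, 13.5, 15.4 and 12.5 CPM in stressed libraries, 4.34, 5.12, 5.95 and 6.26 CPM in resilient libraries and 2.94, 3.09 and 4.78 CPM in control libraries. Stressed libraries did not overlap either other group for any of the 3. Against control the log2 fold changes were 1.67 ± 0.271 (adjusted p = 0.00176) for Canx, 1.60 ± 0.269 (adjusted p = 0.00201) for Calr and 1.81 ± 0.2 (adjusted p = 0.000386) for Uggt1. Against resilient libraries they were 1.33 ± 0.24 (adjusted p = 0.00304), 1.39 ± 0.24 (adjusted p = 0.00248) and 1.25 ± 0.174 (adjusted p = 0.00103) in the same order. Canx and Calr were highest in stressed replicates 1 to 3, while Uggt1 was highest in replicate 4.

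Disulfide-forming enzymes followed, with 7 of 8 higher than in control and 7 of 8 higher than in resilient libraries. Pdia3, which works with Canx and Calr on glycoproteins, had 138, 150, 129, 79.4 and 83.6 CPM in stressed libraries, 41.1, 40, 43.6 and 70.4 CPM in resilient libraries and 30.6, 36.2 and 51.9 CPM in control libraries. Pdia6, which also acts on Ire1, had 118, 130, 110, 62.5 and 75.4 CPM in stressed libraries, 34.1, 35.1, 41.2 and 48.5 CPM in resilient libraries and 25.5, 33.4 and 40.4 CPM in control libraries. P4hb, the classical protein disulfide isomerase, had 119, 123, 112, 59.4 and 66.3 CPM in stressed libraries, 41.4, 44, 45.4 and 70.8 CPM in resilient libraries and 32.6, 39.4 and 44.2 CPM in control libraries. Stressed and other libraries did not overlap for Pdia3 and Pdia6, while resilient replicate 4 exceeded stressed replicates 4 and 5 for P4hb. These 3 changed by 1.54 ± 0.29 (adjusted p = 0.00331), 1.58 ± 0.263 (adjusted p = 0.00193) and 1.30 ± 0.285 (adjusted p = 0.00713) against control on the log2 scale. Pdia4, another isomerase of the lumen, had 38.3, 43.6, 44, 18.4 and 22.1 CPM in stressed libraries, 10.3, 13.7, 14.3 and 18.6 CPM in resilient libraries and 12.2, 12 and 17.9 CPM in control libraries, so that stressed replicate 4 fell just below the highest resilient library. Ero1l, the oxidase that recharges the isomerases, had 9.46, 8.67, 7.13, 8.16 and 7.79 CPM in stressed libraries, 4.41, 5.65, 4.87 and 5.55 CPM in resilient libraries and 3.76, 4.68 and 5.28 CPM in control libraries, with no overlap. Dnajc10, a reductase that opens disulfides before degradation, had 20.5, 19.5, 16.6, 22 and 21.7 CPM in stressed libraries, 12.4, 15, 16.7 and 14.6 CPM in resilient libraries and 8.75, 13.8 and 12.2 CPM in control libraries, and stressed replicate 3 lay just below resilient replicate 3. Erp44, which retrieves unfinished cargo from the Golgi, had 28.4, 29.4, 26.2, 20.8 and 20.9 CPM in stressed libraries, 14.6, 16.9, 19.2 and 21 CPM in resilient libraries and 13, 15.5 and 17.2 CPM in control libraries, with replicates 4 and 5 just below resilient replicate 4. The smaller changes of these last genes against control were 0.83 ± 0.166 (adjusted p = 0.00428) for Ero1l, 0.78 ± 0.155 (adjusted p = 0.00437) for Dnajc10 and 0.71 ± 0.178 (adjusted p = 0.0128) for Erp44, with Pdia4 at 1.24 ± 0.319 (adjusted p = 0.0142). Erp29, an isomerase-like protein without redox activity, had 66.6, 62.4, 62.1, 23.1 and 28 CPM in stressed libraries, 26.8, 26.6, 28.8 and 30.7 CPM in resilient libraries and 28.2, 30.7 and 27.5 CPM in control libraries and did not pass, at 0.75 ± 0.321 (adjusted p = 0.097). In Erp29, 33.9% of exon bases are shared with exons of genes on the other strand, and in Hsp90b1 21.6% with other annotated genes, so their counts are uncertain where counting did not use strand.

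ER-associated degradation was uneven, with 5 of 9 genes higher in both comparisons. Sel1l, the scaffold of the Hrd1 ubiquitin ligase, had 61.7, 60.9, 61.9, 66.2 and 66.5 CPM in stressed libraries, 20.7, 25.5, 27.7 and 29.6 CPM in resilient libraries and 15.9, 20.8 and 25.7 CPM in control libraries. Syvn1 (Hrd1), the ligase itself, had 24.1, 28.5, 20.9, 24.5 and 28.4 CPM in stressed libraries, 11.5, 12.4, 14.3 and 18.7 CPM in resilient libraries and 11.1, 11.5 and 13.6 CPM in control libraries. Os9, a lectin that delivers glycoproteins to Sel1l, had 99, 99.1, 91.2, 72.7 and 78.7 CPM in stressed libraries, 24.4, 29.5, 33.8 and 52.5 CPM in resilient libraries and 23.7, 28.1 and 33 CPM in control libraries. None of these 3 overlapped between stressed and other libraries. Sel1l rose by 1.59 ± 0.155 (adjusted p = 0.000284), Syvn1 by 1.05 ± 0.174 (adjusted p = 0.00187) and Os9 by 1.63 ± 0.237 (adjusted p = 0.00105) on the log2 scale against control. Herpud1, which organises the ligase complex, had 62.2, 65.6, 58.5, 63.6 and 67.1 CPM in stressed libraries, 39.8, 42.8, 46.6 and 54 CPM in resilient libraries and 36.7, 41.7 and 41.8 CPM in control libraries, a smaller but even difference of 0.64 ± 0.112 (adjusted p = 0.00231). Edem3, which trims mannose from failing glycoproteins, had 4.49, 6.07, 7.61, 6.28 and 6.31 CPM in stressed libraries, 3.28, 3.14, 3.46 and 3.8 CPM in resilient libraries and 2.08, 2.34 and 2.19 CPM in control libraries and changed by 1.46 ± 0.181 (adjusted p = 0.000618). Its relatives did not pass. Edem1 had 11.4, 10.3, 8.54, 8.39 and 6.93 CPM in stressed libraries, 6.49, 9.54, 11.4 and 8.01 CPM in resilient libraries and 5.15, 8.15 and 7.05 CPM in control libraries and Edem2 had 42, 41.6, 35.1, 25.1 and 24.3 CPM in stressed libraries, 38.4, 36.5, 39.4 and 36.6 CPM in resilient libraries and 34.6, 34.8 and 33.5 CPM in control libraries. Both overlapped the other groups, at 0.41 ± 0.225 (adjusted p = 0.179) and -0.04 ± 0.189 (adjusted p = 0.896). The channel proteins Derl1 and Derl2 did not pass either. Derl1 had 87.4, 92.6, 80.1, 52.5 and 55.5 CPM in stressed libraries, 47.3, 55.6, 62.2 and 70.7 CPM in resilient libraries and 47, 54.3 and 54.1 CPM in control libraries, and Derl2 had 39.4, 40.5, 39.1, 21.5 and 22.9 CPM in stressed libraries, 23.3, 23.8, 26.8 and 32.1 CPM in resilient libraries and 22.8, 30.1 and 21.4 CPM in control libraries. In both, replicates 1 to 3 were above every other PFC library and replicates 4 and 5 among the others, with log2 fold changes of 0.50 ± 0.21 (adjusted p = 0.0897) and 0.40 ± 0.243 (adjusted p = 0.232).

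Of the 5 regulators, Atf6 and Xbp1 passed in both comparisons and Atf4, Ern1 and Ddit3 in neither. Atf6, an ER membrane sensor and transcription factor, had 13, 12.3, 12.4, 27.3 and 22.6 CPM in stressed libraries, 7.69, 8.9, 9.27 and 7.41 CPM in resilient libraries and 6.05, 7.19 and 5.68 CPM in control libraries. Every stressed library was above every other, and replicates 4 and 5 lay above replicates 1 to 3. Its log2 fold change was 1.44 ± 0.256 (adjusted p = 0.00245) against control and 1.07 ± 0.226 (adjusted p = 0.00632) against resilient libraries. Xbp1, which encodes the transcription factor made after Ire1 splicing, had 89.1, 86.3, 83.4, 62.8 and 71.3 CPM in stressed libraries, 49.4, 53.5, 61.7 and 58.7 CPM in resilient libraries and 44.8, 55.4 and 60.1 CPM in control libraries, and changed by 0.54 ± 0.15 (adjusted p = 0.0191) against control; the gene counts do not separate spliced from unspliced mRNA. Atf4, the translationally controlled effector of Perk, had 153, 154, 159, 109 and 111 CPM in stressed libraries, 165, 153, 169 and 125 CPM in resilient libraries and 208, 167 and 154 CPM in control libraries. Stressed values were at or below most others, and the difference did not pass, at -0.37 ± 0.168 (adjusted p = 0.11). Ddit3, its pro-apoptotic target, had 58, 44.1, 45.4, 26.6 and 31.5 CPM in stressed libraries, 45.4, 42, 44.8 and 42.2 CPM in resilient libraries and 49, 48.2 and 41.7 CPM in control libraries, at -0.18 ± 0.212 (adjusted p = 0.541). In Ddit3, 20.9% of exon bases are shared with other annotated entries on either strand, so its counts are uncertain too. Ern1, the Ire1 sensor, was near the lower limit of measurement: 0.517, 0.339, 1.25, 0.762 and 0.697 CPM in stressed libraries, 0.453, 0.459, 0.289 and 0.372 CPM in resilient libraries and 0.49, 0.543 and 0.611 CPM in control libraries, at 0.35 ± 0.384 (adjusted p = 0.508). Ccdc47, a calcium-binding ER membrane protein that acts in membrane protein insertion, stands outside these roles and had 40.1, 46, 44.1, 33.4 and 33.9 CPM in stressed libraries, 13.5, 12.4, 14.1 and 16.8 CPM in resilient libraries and 11.2, 13.1 and 12.7 CPM in control libraries. It was higher by 1.67 ± 0.164 (adjusted p = 0.000284) against control and 1.48 ± 0.146 (adjusted p = 0.000439) against resilient libraries.

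**Figure D2:**
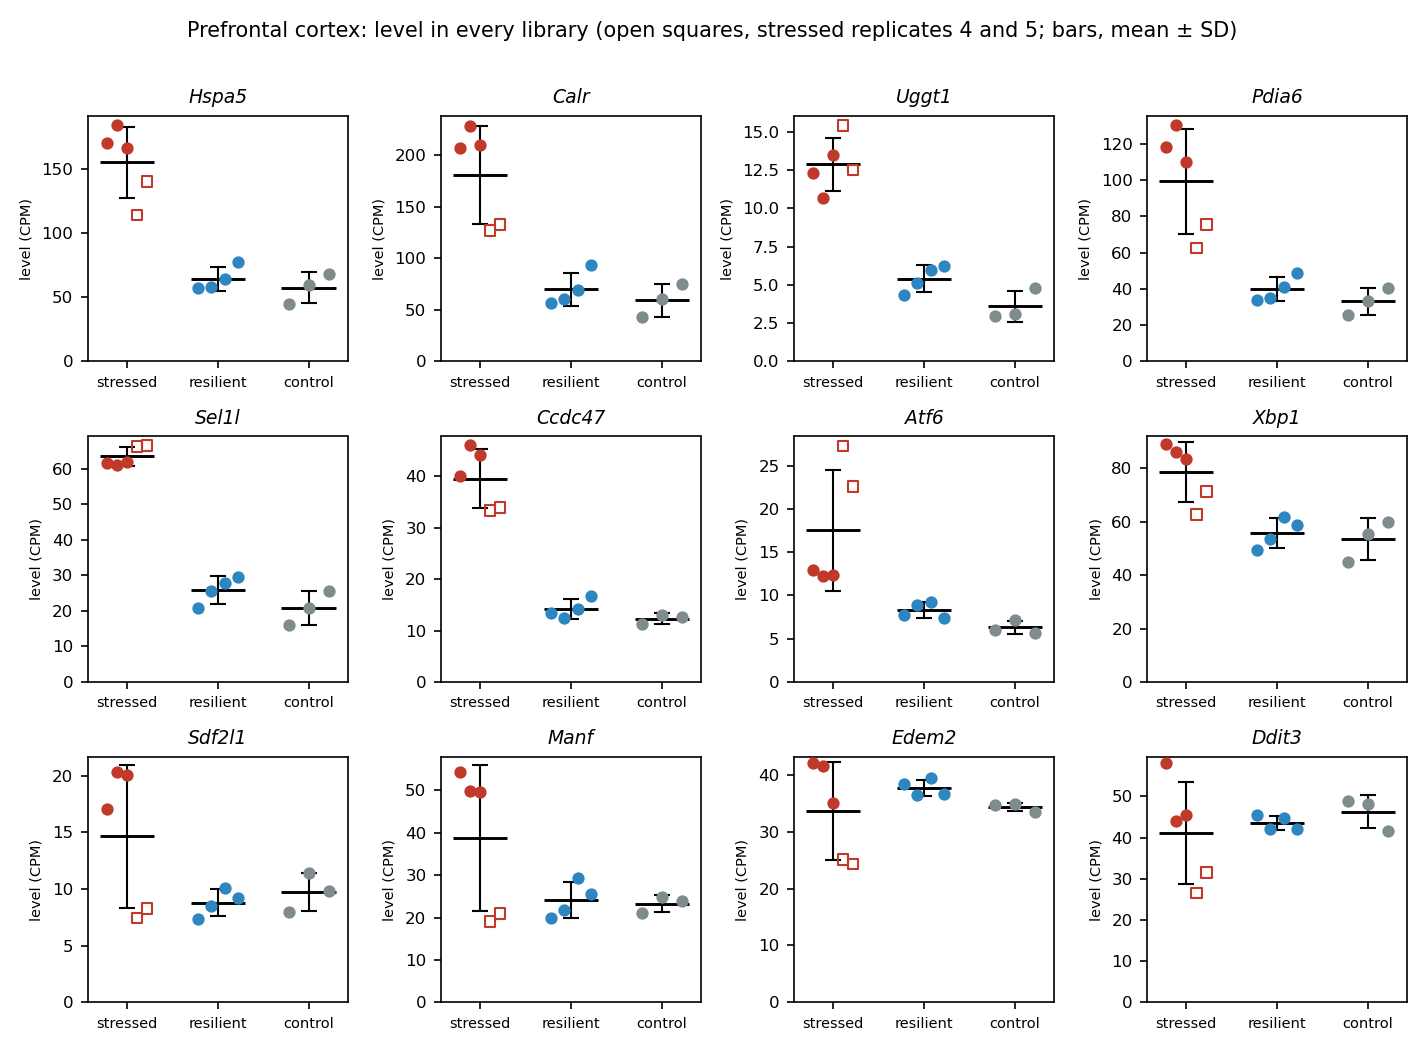
Level in CPM of 12 genes in every prefrontal cortex library, by group; horizontal lines and bars are the mean ± SD, and open squares mark stressed replicates 4 and 5. Hspa5 lies between 114 and 184 CPM in stressed libraries and at or below 77.3 CPM elsewhere, while the open squares of Sdf2l1 and Manf fall among or below the resilient and control libraries.

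Per kilobase of exon, Calr was the most abundant gene of the 35 in stressed PFC libraries at 83 CPM per kb, followed by Atf4 at 79.6, Ddit3 at 46.2, Pdia6 at 45.8, Pdia3 at 41.8 and Hspa5 at 41.3 CPM per kb. In control libraries the order at the top differed: Atf4 stood at 102, Ddit3 at 52 and Calr at 27.2 CPM per kb. Ern1 was the lowest in both, at 0.0874 CPM per kb in stressed and 0.0672 CPM per kb in control libraries. Summed over the 35 genes, the level was 1943 ± 423 CPM in stressed (SD, n = 5), 1098 ± 137 CPM in resilient (n = 4) and 1000 ± 81 CPM in control libraries (n = 3). The lowest stressed sum, 1429 CPM, was above the highest resilient sum of 1269 CPM.

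The stressed PFC libraries did not form one pattern. Fitted without stressed replicates 4 and 5, 31 of the 35 genes were higher than in control libraries and none lower, where 19.9% of all genes were higher and 18.0% lower. Without replicates 1 to 3, 19 were higher and 3 were lower, where 26.7% of all genes were higher and 21.9% lower. These shares are above the 16.4% and 11.7% with all libraries, and 19 of the 24 genes called with all libraries were called higher in both of these fits. The share of all genes called in both fits was not counted. Log2 fold changes against control are given next as the value for replicates 1 to 3, then the value for replicates 4 and 5. They were 1.55 and 1.63 for Sel1l, 1.44 and 1.47 for Edem3, 1.01 and 1.09 for Syvn1, 0.62 and 0.66 for Herpud1 and 1.73 and 1.90 for Uggt1. Atf6 and Hyou1 were larger in replicates 4 and 5, with 0.99 and 1.94 for Atf6 and 1.16 and 1.47 for Hyou1. The lumen proteins Hspa5, Calr, Dnajc3 and Creld2 were larger in replicates 1 to 3, with 1.59 and 1.10 for Hspa5, 1.85 and 1.09 for Calr, 1.67 and 0.43 for Dnajc3 and 1.57 and 0.28 for Creld2. Among genes that passed in replicates 1 to 3, the sign turned for 4, Sdf2l1 at 0.96 and -0.35, Manf at 1.12 and -0.27, Erp29 at 1.13 and -0.22 and Derl2 at 0.67 and -0.20. In each of these 4 the value for replicates 1 to 3 passed and the value for replicates 4 and 5 did not. The 3 genes called lower in replicates 4 and 5 were Atf4 at -0.73 (adjusted p = 0.000652), Ddit3 at -0.72 (adjusted p = 0.00019) and Edem2 at -0.52 (adjusted p = 0.00115). In replicates 1 to 3 they did not pass, at -0.20 for Atf4, 0.07 for Ddit3 and 0.19 for Edem2. The sign thus turned for Ddit3 and Edem2 too. The fits share their control libraries, and the difference between the 2 subsets was not tested. The split is also that of the naming form and of the length trend given above, and their part in the difference between the subsets was not tested.

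**Figure D3:**
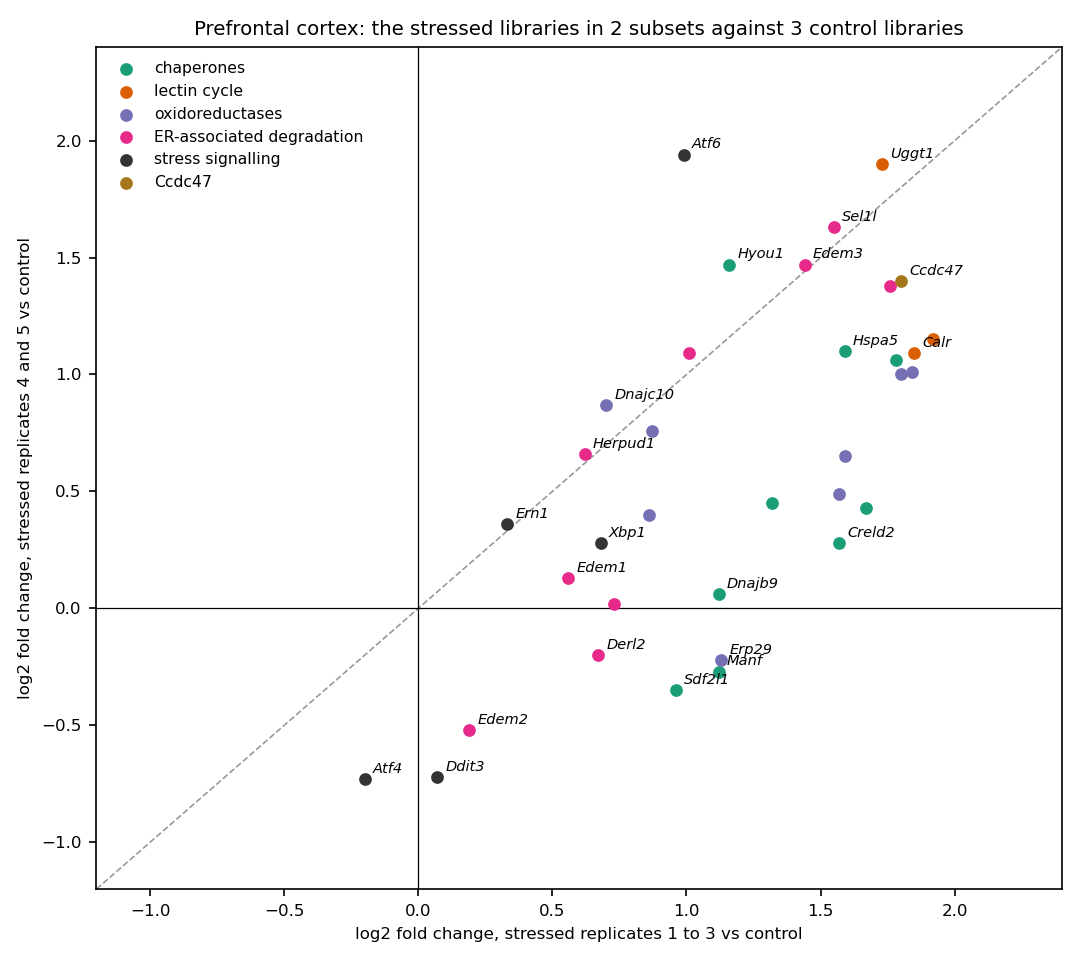
Each point is 1 of the 35 genes, coloured by role; the horizontal axis is its log2 fold change of stressed replicates 1 to 3 against 3 control libraries of the prefrontal cortex and the vertical axis that of stressed replicates 4 and 5, with the dashed line marking equal values. Sel1l, Edem3 and Herpud1 lie close to the line and Atf6 lies above it. Sdf2l1, Manf, Erp29, Derl2, Edem2, Ddit3 and Atf4 lie below 0 on the vertical axis.

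Comparing libraries of 1 naming form, an alternative chosen after seeing the data, gave 21 genes higher and 3 lower against control within the 3-letter form, where the 2 stressed libraries are replicates 4 and 5 and 29.5% of all genes were higher and 24.4% lower. Within the 1-letter form, with 3 stressed libraries and 1 control library, 28 were higher and none lower (14.1% of all genes higher); the lone control library is assumed there to vary like the others. Against resilient libraries 19 were higher and 3 lower within the 3-letter form, where 27.3% of all genes were higher and 24.2% lower, and 22 were higher within the 1-letter form, where 11.5% of all genes were higher. With the naming form as a covariate, 23 genes were higher than in control and 22 higher than in resilient libraries (18.2% and 15.9% of all genes). With each library's trend on exon length removed, 25 were higher than in control and 26 higher than in resilient libraries (14% and 13.5% of all genes). Leaving out control replicate 1 gave 17 genes against control (5.74% of all genes), and leaving out any 1 other library gave 22 to 28 (8.53% to 17.5% of all genes). In all, 16 genes were called higher than in control libraries under each of 19 settings: Hspa5, Hsp90b1, Canx, Calr, Uggt1, Pdia3, Pdia6, P4hb, Dnajc10, Herpud1, Sel1l, Syvn1, Edem3, Os9, Atf6 and Ccdc47. Against resilient libraries 11 of them were called under each of 20 settings, the exceptions being P4hb, Dnajc10, Herpud1, Syvn1 and Edem3. The share of all genes called under every setting was not counted, so these 2 counts have no background beside them. The settings reuse the same libraries and are not independent of each other.

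Resilient and control libraries of the PFC were not told apart for these genes. None of the 35 was called, nor was any of the 15491 genes (0.0%), by edgeR or by DESeq2. At an unadjusted p under 0.05 there were 2 of the 35 and 2.35% of all genes; the 2 were Edem3 with a log2 fold change of 0.61 ± 0.185 (SE) and Uggt1 with 0.56 ± 0.201. The median over the 35 was 0.21, against 0.01 over all genes, and 29 of the 35 were above 0 (53.3% of all genes). Within the 1-letter form, 4 of the 35 were called higher and 2.51% of all genes; it holds 1 resilient and 1 control library, each assumed to vary like the 3 stressed ones.

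Markers of other cell types were also higher in the stressed PFC libraries. Of 15 microglia and macrophage markers 12 were called higher than in control libraries, and their summed level was 45.4 to 112 CPM in stressed, 32.9 to 38.9 CPM in resilient and 25.1 to 37.5 CPM in control libraries. Of 16 neuronal markers 11 were called higher, with sums of 4571 to 8590 CPM in stressed, 3793 to 4535 CPM in resilient and 3308 to 4342 CPM in control libraries. Inhibitory neuron markers, 6 of 10 called, summed to 287 to 630 CPM in stressed, 165 to 189 CPM in resilient and 133 to 189 CPM in control libraries. Excitatory neuron markers, also 6 of 10, summed to 1294 to 2057 CPM in stressed, 916 to 1202 CPM in resilient and 816 to 1114 CPM in control libraries. Endothelial markers, with 4 of the 10 tested called, summed to 139 to 261 CPM in stressed, 98.3 to 144 CPM in resilient and 92 to 123 CPM in control libraries. Meningeal fibroblast markers, 4 of 10, reached 1207 to 7342 CPM in stressed, 1157 to 1754 CPM in resilient and 1081 to 2358 CPM in control libraries. Astrocyte markers summed to 38513 to 75109 CPM in stressed, 42750 to 59487 CPM in resilient and 47198 to 48423 CPM in control libraries, with 7 of 16 called higher and 1 lower. No marker of these 7 lists was at 0 in all libraries of a PFC group. Beside these counts, 16.4% of all genes were called higher and 11.7% lower. In other lists, 3 of 8 oligodendrocyte precursor, 3 of 7 mural, 4 of 10 striatal projection neuron and 3 of 12 oligodendrocyte markers tested were also called higher. So was 1 of 5 ependymal markers tested, with 0 of 4 for choroid plexus and 0 of 4 for red blood cells. None of these was called lower. Against resilient libraries, 12 of 15 microglial, 12 of 16 neuronal, 6 of 10 inhibitory and 5 of 10 excitatory neuron markers were higher. So were 5 of 10 endothelial and 8 of 10 meningeal fibroblast markers, and 2 of 16 astrocyte markers with 1 lower. The other lists gave 2 of 8, 2 of 7, 4 of 10, 4 of 12, 1 of 5, 0 of 4 and 0 of 4 in the order above. Of all genes, 14.3% were higher there and 10.7% lower. Neuronal sums were highest in stressed replicates 4 and 5, and microglial sums in replicates 1 to 3. Astrocyte sums also split the stressed libraries, with 75109, 72392 and 68203 CPM in replicates 1 to 3, above every other PFC library, and 38513 and 46120 CPM in replicates 4 and 5, below every control library. The part of all these cell types in the 35 genes' values was not tested.

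Other genes of the secretory pathway were read from lists that share no gene with the 35. In stressed against control PFC libraries, 18 of 31 genes of ER translocation and N-glycosylation were called higher and none lower, with a median log2 fold change of 0.80; against resilient libraries 14 were higher. Tusc3, a subunit of the oligosaccharyltransferase, averaged 77.1 ± 8.06 CPM in stressed, 44.7 ± 6.25 CPM in resilient and 37.5 ± 4.53 CPM in control libraries (SD, n = 5 stressed, 4 resilient and 3 control, as for the other genes of these lists). Rpn1, another subunit, averaged 118 ± 20.5 CPM in stressed, 60.1 ± 14.6 CPM in resilient and 47.7 ± 6.89 CPM in control libraries. Ganab, the catalytic part of glucosidase II, averaged 42.7 ± 4.44 CPM in stressed, 23.4 ± 3.13 CPM in resilient and 22.1 ± 1.31 CPM in control libraries. Other ER oxidoreductases and isomerases had 20 of 28 higher and none lower, with a median of 0.89, and 10 higher against resilient libraries. The thioredoxin-related Tmx4 averaged 34.7 ± 3.09 CPM in stressed, 16.9 ± 2.48 CPM in resilient and 15 ± 4.5 CPM in control libraries. Other degradation genes were fewer, 8 higher and 2 lower of 28 tested, with a median of 0.42, and 5 higher and 2 lower against resilient libraries. Among them March6, a membrane ubiquitin ligase also called Marchf6, averaged 28.3 ± 3.98 CPM in stressed, 10.1 ± 1.43 CPM in resilient and 8.11 ± 2.82 CPM in control libraries.

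Lists of signalling, cytosolic, mitochondrial and export genes were read in the same way. Of 22 other regulators of the unfolded protein response, 7 were higher and 1 lower than in control libraries, with a median of 0.14, and 6 higher and 1 lower than in resilient ones. Wfs1, an ER membrane protein of calcium balance, averaged 59.3 ± 4.15 CPM in stressed, 33.1 ± 8.9 CPM in resilient and 28.3 ± 5.36 CPM in control libraries, while Ppp1r15a (Gadd34), which reverses the Perk signal, was the lower one at 55.5 ± 4.66 CPM in stressed, 83.4 ± 6.94 CPM in resilient and 86.4 ± 5.77 CPM in control libraries. Targets of Atf4 in the integrated stress response gave 3 higher and 3 lower of 27 tested and a median of -0.01, and 2 higher and 1 lower against resilient libraries. The cystine transporter Slc7a11 averaged 28.4 ± 4.37 CPM in stressed, 20.5 ± 1.89 CPM in resilient and 15.6 ± 2 CPM in control libraries; the cystathionine lyase Cth averaged 56.3 ± 4 CPM in stressed, 71.9 ± 3.51 CPM in resilient and 84.6 ± 2.79 CPM in control libraries. Cytosolic chaperones had 7 higher and 1 lower of 34, with a median of 0.30, and 12 higher and 1 lower against resilient libraries. Hsp90aa1, the inducible cytosolic Hsp90, averaged 451 ± 144 CPM in stressed, 167 ± 24 CPM in resilient and 178 ± 38.8 CPM in control libraries. Mitochondrial chaperones and proteases had 3 higher and 2 lower of 14, with a median of 0.09, and 1 higher against resilient libraries. Genes of ER export and retrieval had 5 higher and 1 lower of 30 tested and a median of 0.43, and 4 higher and 2 lower against resilient libraries. Mia3, which loads large cargo, averaged 18.4 ± 3.82 CPM in stressed, 7.34 ± 0.852 CPM in resilient and 7.05 ± 1.41 CPM in control libraries. Preb, an activator of export vesicle coats, averaged 126 ± 6.51 CPM in stressed, 173 ± 8.08 CPM in resilient and 186 ± 4.65 CPM in control libraries. These counts stand beside the 16.4% of all genes called higher and 11.7% called lower against control and the 14.3% and 10.7% against resilient libraries, and differences between lists were not tested.

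In the hippocampus none of the 35 genes was called in any of the 3 comparisons, and edgeR called none of 15758 genes (0.0% in each). Stressed against resilient libraries gave a median log2 fold change of 0.69 over the 35 and 0.06 over all genes. Of the 35, 32 were above 0 (54.3% of all genes) and 23 at an unadjusted p under 0.05 (17.2% of all genes). Stressed against control libraries gave a median of 0.55 (0.05 over all genes), with 32 above 0 (54.3% of all genes) and 8 at an unadjusted p under 0.05 (8.33% of all genes). With the replicate number as a block, the unadjusted counts were 6 against resilient (24.3% of all genes) and 1 against control libraries (18.3%). Against control the count was 0 without control replicate 2 (2.03% of all genes) and 20 without stressed replicate 1 (19.4%). One library set these values apart: Hspa5 had 57, 151, 177, 167 and 204 CPM in stressed libraries, 83.3, 67.2 and 54.1 CPM in resilient libraries and 92, 63.7 and 111 CPM in control libraries. Stressed replicate 1 lay among the resilient and control libraries and the other 4 above every resilient and control library. The same held for Sel1l, with 23.2, 82.7, 93.2, 78.4 and 65.2 CPM in stressed libraries, 23.9, 33.9 and 28.6 CPM in resilient libraries and 37.7, 21.1 and 38.9 CPM in control libraries, and for Ccdc47, with 16.6, 55.3, 57.1, 59.1 and 48.8 CPM in stressed libraries, 15.9, 21.8 and 23.4 CPM in resilient libraries and 30.7, 17.6 and 31 CPM in control libraries. Uggt1 had 4.39, 14.9, 16.1, 19.1 and 13.7 CPM in stressed libraries, 4.87, 3.89 and 6.42 CPM in resilient libraries and 8.78, 5.33 and 7.87 CPM in control libraries. Without stressed replicate 1, 14 of the 35 and 556 of all genes (3.54%) passed against resilient libraries, and none against control. DESeq2 called 1 of the 35 and 189 of all genes (1.2%) against resilient libraries with all samples, and none of the 35 against control. Within the 1-letter form 20 of the 35 and 692 of all genes (4.35%) passed against resilient libraries, from 2 stressed and 2 resilient libraries.

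Stressed hippocampal replicates 2 and 3 differed from 4 and 5 for several genes, again with higher Atf6 and lower Manf. Atf6 was at 22.3 and 25.5 CPM in replicates 2 and 3, against 12.2 and 7.55 CPM in replicates 4 and 5. Manf was at 19.7 and 22.1 CPM in replicates 2 and 3, against 43.3 and 49.9 CPM in replicates 4 and 5. Erp29 was at 28.4 and 28.7 CPM, against 56.6 and 54.3 CPM, in the same pairs, and Ddit3 at 20.1 and 17.2 CPM, against 39.1 and 36.5 CPM. Replicates 2 and 3 are of the 3-letter form and have the positive length trend given above. Their neuronal marker sums were 8003 and 7209 CPM, against 2397 to 5293 CPM in the other 9 hippocampal libraries. Their astrocyte marker sums were 35996 and 34825 CPM, against 75400 and 71071 CPM in stressed replicates 4 and 5 and 46944 to 76146 CPM in all other 9 hippocampal libraries. Choroid plexus markers, all 10 measured, summed to 56.4 to 10868 CPM in stressed, 472 to 1935 CPM in resilient and 54.1 to 7746 CPM in control libraries of the hippocampus. The part of these cells in the 35 genes' values was not tested. Resilient against control libraries gave a median of -0.24 over the 35 (-0.02 over all genes), with 2 above 0 (46.0% of all genes) and none at an unadjusted p under 0.05 (1.43%).

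In the nucleus accumbens none of the 35 genes passed, and edgeR called 0.0% of 15283 genes in each of the 3 comparisons. DESeq2 also called none of the 35, and 1 of all genes for stressed against control. The median log2 fold change over the 35 was 0.40 for stressed against control, 0.46 for stressed against resilient and -0.05 for resilient against control libraries (0.01, 0.02 and 0.01 over all genes). None was at an unadjusted p under 0.05 in any of them (1.17%, 1.98% and 0.779% of all genes). With the replicate number as a block, 17 (13.3% of all genes) were at that level for stressed against control and 20 (19.3%) for stressed against resilient. Without stressed replicate 4 the numbers were 9 (7.57%) and 11 (12.3%). No gene of the 35 was called in these settings. Here a control library was high: Hspa5 had 185, 145, 106 and 104 CPM in stressed libraries, 60.7, 100 and 93.9 CPM in resilient libraries and 58.5, 142 and 71.1 CPM in control libraries, and Canx had 186, 179, 120 and 106 CPM in stressed libraries, 68.7, 107 and 102 CPM in resilient libraries and 64.6, 169 and 65 CPM in control libraries. Control replicate 2 lay above all resilient libraries and within the stressed range. Without it the median of stressed against control was 0.79, with 25 of the 35 and 8.12% of all genes at an unadjusted p under 0.05 and none called; without control replicate 1 it was 0.22. Atf6 had 9.78, 8.37, 8.02 and 19.8 CPM in stressed libraries, 12.1, 11.4 and 9.31 CPM in resilient libraries and 12.5, 13.3 and 6.77 CPM in control libraries. Stressed replicate 4 was the highest, and it was the lowest stressed library for Manf, with 54.4, 42.3, 28.6 and 13.5 CPM in stressed libraries, 17.5, 24.3 and 28.9 CPM in resilient libraries and 17.8, 34.3 and 20.2 CPM in control libraries. Control replicate 2 also had the highest microglial marker sum of the 10 accumbens libraries, 69.1 CPM, and an astrocyte marker sum of 65841 CPM against 31880 and 44968 CPM in the other control libraries.

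The caudate putamen, with 3 stressed, 2 resilient and 2 control libraries, showed no call, with 32 of the 35 log2 fold changes of stressed against control above 0 (48.5% of all genes). Every stressed library lay above every resilient library for 17 of the 35 (11.9% of all genes) and above every control library for 4 (12.7%). With so few libraries, full separation is met more easily than in the PFC, and the counts of the 2 regions are not alike. None of the 35 genes and 0.0% of 14958 genes passed in each of the 3 comparisons by edgeR; DESeq2 called none of the 35 and 41, 3 and 29 of all genes for stressed against control, stressed against resilient and resilient against control. The medians over the 35 were 0.41, 0.29 and 0.10 in that order, against -0.01, -0.02 and 0.01 over all genes. At an unadjusted p under 0.05 there were 2, 1 and 0 of the 35, against 9.56%, 2.55% and 8.25% of all genes in the same order. Hspa5 had 201, 154 and 143 CPM in stressed libraries, 158 and 120 CPM in resilient libraries and 147 and 86.4 CPM in control libraries, and Calr had 276, 231 and 175 CPM in stressed libraries, 156 and 167 CPM in resilient libraries and 214 and 98.4 CPM in control libraries. For Calr the control libraries lay on either side of the resilient ones, and for Hspa5 the lower control library lay below both. The median of stressed against control was 0.91 without control replicate 1 and 0.03 without control replicate 2, so the value rests on which control library is kept.

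**Figure D4:**
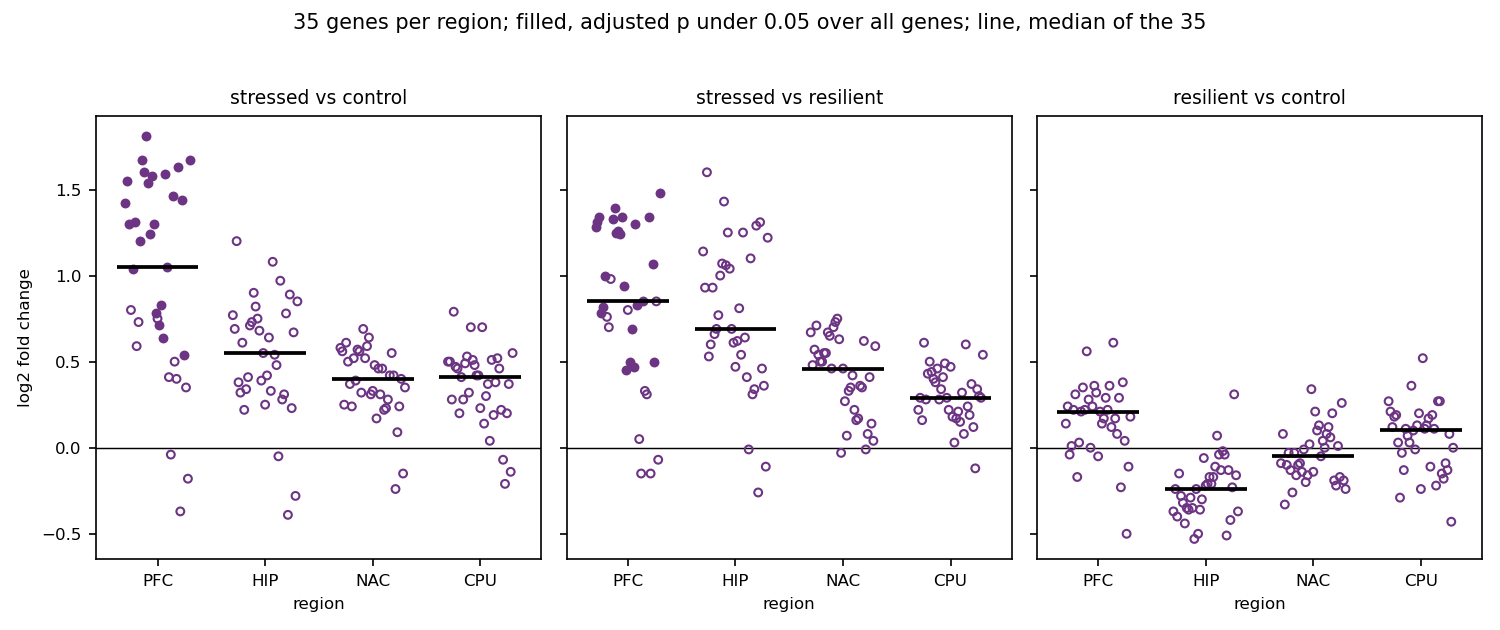
Log2 fold changes of the 35 genes in 4 regions for 3 comparisons; each point is a gene, filled where it passed adjusted p under 0.05 over all genes, and the line is the median of the 35. Medians of stressed against control are 1.05 in PFC, 0.55 in HIP, 0.40 in NAC and 0.41 in CPU, and points are filled in the PFC only.

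An interaction test over all 40 libraries asked whether the difference between stressed and control libraries depended on region. No gene of the 35, and 0.0% of 16759 genes, passed this joint test with 3 degrees of freedom, so a call in the PFC and none elsewhere is not shown to be a difference. DESeq2, run on the stressed and control libraries only, called none of the 35 and 70 of 16621 genes (0.421%). By edgeR, 5 of the 35 were at an unadjusted p under 0.05, a share near the 12.6% of all genes, so this count is not a result about the 35. The 5 were Uggt1, Sel1l, Atf6, Edem3 and Ccdc47. Uggt1 and Sel1l had the smallest adjusted p, 0.285 for both. Their log2 fold changes of stressed against control were 1.81 ± 0.2 and 1.59 ± 0.155 in PFC, 0.90 ± 0.397 and 1.08 ± 0.381 in HIP, 0.32 ± 0.302 and 0.31 ± 0.235 in NAC, and 0.32 ± 0.3 and 0.37 ± 0.226 in CPU (SE).

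**Figure D5:**
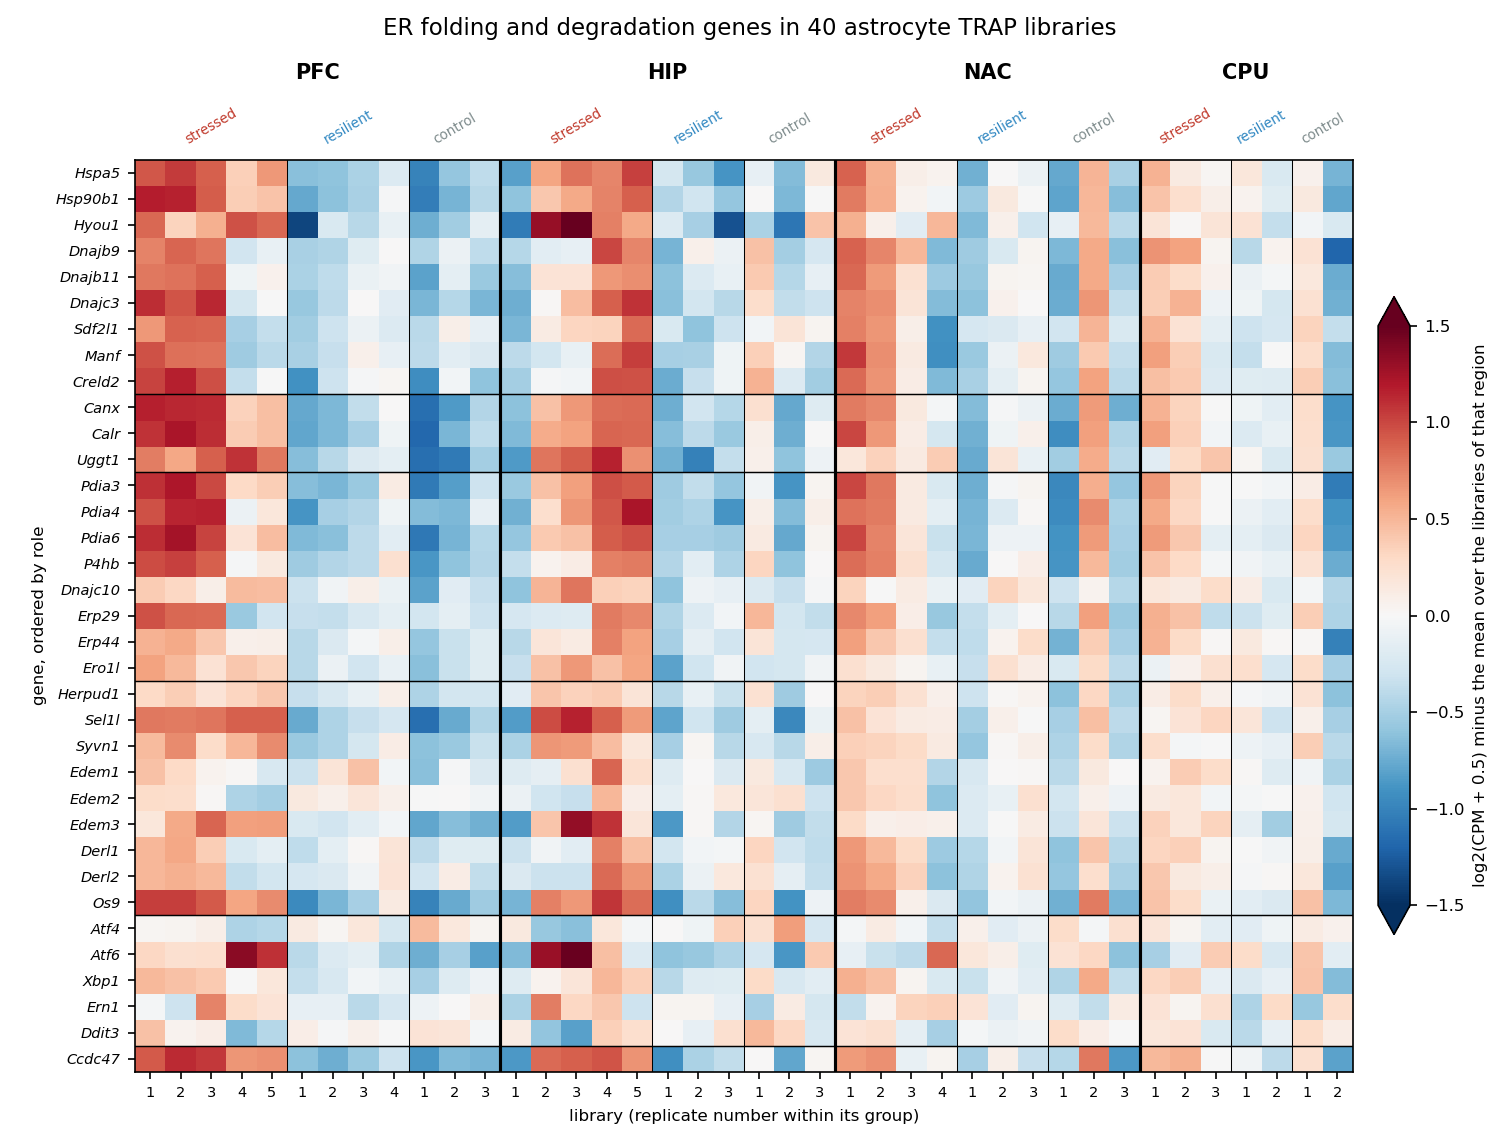
Each column is 1 of 40 libraries, grouped by region and condition, and each row 1 of the 35 genes by role; colour is log2(CPM + 0.5) minus the mean over the libraries of that region. At least 25 of the 35 genes lie above their region's mean in PFC stressed replicates 1 to 3, HIP stressed replicates 2 to 5, HIP control replicate 1, NAC stressed replicates 1 to 3, NAC control replicate 2, CPU stressed replicates 1 and 2 and CPU control replicate 1, while Atf6 is reddest in PFC stressed replicates 4 and 5, HIP stressed replicates 2 and 3 and NAC stressed replicate 4.

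Among control libraries, the joint test over 4 regions called 6 of the 35 (17.1%), where 18.8% of all 16053 genes were called, a share near the background. The 6 were Edem3, Edem1, Sel1l, Dnajc10, Uggt1 and Ero1l. Edem3 in control libraries had 2.08, 2.34 and 2.19 CPM in PFC, 4.75, 3.07 and 3.5 CPM in HIP, 8.07, 11.7 and 8.1 CPM in NAC and 12.4 and 9.7 CPM in CPU. The libraries of NAC and CPU overlapped each other and lay above all of HIP, and those of HIP above all of PFC. Sel1l had 15.9, 20.8 and 25.7 CPM in PFC, 37.7, 21.1 and 38.9 CPM in HIP, 38.4, 74.3 and 41.2 CPM in NAC and 74.7 and 49.8 CPM in CPU, and Edem1 had 5.15, 8.15 and 7.05 CPM in PFC, 8.58, 6.41 and 5.1 CPM in HIP, 9.28, 13.9 and 12.5 CPM in NAC and 17.4 and 12.8 CPM in CPU. Dnajc10 had 8.75, 13.8 and 12.2 CPM in PFC, 16.5, 15 and 19.1 CPM in HIP, 17.7, 22.9 and 16.3 CPM in NAC and 27.7 and 20.6 CPM in CPU. Set against the mean of the other 3 regions, the PFC had 7 lower genes and 1 higher, against a background of 12.7% called. Lower were Edem3 with -1.73 ± 0.223, Uggt1 with -1.40 ± 0.328, Os9 with -1.37 ± 0.406, Canx with -1.30 ± 0.382, Sel1l with -1.19 ± 0.283, Dnajc3 with -1.12 ± 0.323 and Dnajc10 with -0.79 ± 0.19 on the log2 scale (SE). Atf4 was higher by 0.66 ± 0.166, with 208, 167 and 154 CPM in PFC, 118, 154 and 83.3 CPM in HIP, 126, 102 and 123 CPM in NAC and 99.7 and 95.6 CPM in CPU. The median over the 35 was -0.77, against -0.04 over all genes.

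The other regions had fewer calls. Edem3 was the 1 gene lower in HIP, at -0.70 ± 0.208 (13.5% of all genes called), and the 1 gene higher in NAC, at 1.04 ± 0.189 (2.17% called). In CPU, Edem3 at 1.39 ± 0.208 and Edem1 at 0.90 ± 0.235 were higher (5.61% called). These counts were small and moved with single libraries. The joint count was 13 without NAC control replicate 2 (17.5% of all genes), and 1 without PFC control replicate 1 or without CPU control replicate 1 (11.3% and 12.4% of all genes), and DESeq2 called 17 (30.6% of all genes). CPU had 11 higher genes without NAC control replicate 2 and 0 without CPU control replicate 1. Ero1l in control libraries had 3.76, 4.68 and 5.28 CPM in PFC, 4.95, 5.03 and 5.92 CPM in HIP, 7.52, 11 and 6.65 CPM in NAC and 12.5 and 7.09 CPM in CPU, Uggt1 had 2.94, 3.09 and 4.78 CPM in PFC, 8.78, 5.33 and 7.87 CPM in HIP, 7, 15.3 and 7.65 CPM in NAC and 14.9 and 8.36 CPM in CPU, and both had a wide spread in NAC and CPU.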

How the data were processed

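Ribosome-bound RNA of astrocytes was measured as read counts per gene symbol in 40 TRAP libraries. For the deposited counts the submitters' processing notes name STAR 2.0.0e, HTSeq and the build mm10, and the authors deposited raw counts. Which annotation and counting mode HTSeq used, and whether it used strand, is not given in the sources used here. Rows that name no gene held 16.95% to 20.12% of reads and were left out. The 35 genes, the other lists and the rule for naming genes were chosen with earlier results of these data known. Values per library were given for the 8 genes with the smallest and the 3 with the largest p in PFC stressed against control, the 5 regulators, genes called elsewhere or changing when stressed libraries were left out, and the 4 with the smallest joint p between regions; those of other genes were added.

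Genes were filtered with filterByExpr and scaled by TMM, and all 35 passed in each fit. Tests were edgeR 4.0.16 quasi-likelihood F tests in R 4.3.3, two-sided, with 1 fit per region over 3 conditions, a joint test with 3 degrees of freedom over regions in the 11 control libraries, and an interaction test over 40 libraries. P-values were adjusted by Benjamini-Hochberg over all genes tested, and a gene is called at an adjusted p under 0.05. They measure the spread between pools of mice; libraries of a group differed by more than counting error (chi-square per degree of freedom 8.25 to 293 in 52 pairs). Levels are TMM-scaled CPM over 40 libraries, divided by merged exon length of GENCODE M21 where genes are compared. Depth of 21.3 to 33.0 M gave at least 8 counts to every gene in every library, and Ern1 had the fewest. Alternatives were DESeq2 1.42.0, RLE size factors, no filter, each library left out in turn, the replicate number as a block, the naming form, subsets of stressed PFC libraries and removal of a trend with exon length; the test was checked on simulated counts. Replicate numbers appear in every group. Same-numbered libraries deviated together at over 0.1 in all 3 pairs for NAC resilient and control only (0.619, 0.3 and 0.438), where the blocked count of called genes was 0 as without the block. Elsewhere the pairs were mixed, from -0.325 in CPU stressed and resilient replicate 1 to 0.741 in HIP stressed and control replicate 3. The labels give no pairing.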

Additional observations from a re-analysis of the deposited data

Results flagged for a closer look

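Among 140 sets of a gene in a group of 4 or 5 libraries, 6 had 1 library farther from its neighbour than Dixon's 95% limit allows, and chance gives about 1 in 20. In PFC resilient replicate 4, the 1 resilient library there of the 1-letter form, Pdia3 was at 70.4 CPM and P4hb at 70.8 CPM, where the next highest resilient libraries had 43.6 and 45.4 CPM. HIP stressed replicate 1 was the lowest of 5 for Ero1l at 4.73 CPM and for Ccdc47 at 16.6 CPM, where the next lowest had 8.51 and 48.8 CPM. In NAC stressed libraries, Edem3 was highest in replicate 1 at 12.6 CPM, next to 11 CPM, and Atf6 was highest in replicate 4 at 19.8 CPM, next to 9.78 CPM.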

How the results depend on the processing

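The direction of the PFC result held under every alternative: 17 to 31 of the 35 genes were higher than in control libraries and 17 to 29 higher than in resilient ones, against 24 and 24. Of all genes, 5.74% to 29.5% were higher than in control libraries and 7.36% to 27.3% higher than in resilient ones. Genes called lower, 0 as reported, numbered 3 in both comparisons within the 3-letter naming form and without stressed replicates 1 to 3. In these fits 20.8% to 24.4% of all genes were lower. Leaving out each library in turn gave 17 to 28 genes against control (5.74% to 17.5% of all genes) and 17 to 27 against resilient (7.36% to 15.2%). PFC resilient against control had 4 genes within the 1-letter form, and HIP stressed against resilient had 1 by DESeq2, 20 within the 1-letter form and 0 to 14 with each library left out. With the replicate number as a block the PFC counts were 27 and 23 (11.5% and 10.9% of all genes). Between regions the block left 1 gene jointly (6 as reported), where 11.3% of all genes were called. It left 1 lower in PFC (3.97% of all genes), 0 lower in HIP (3.02%), 0 higher in NAC (0.685%) and 1 higher in CPU (1.41%). The block changed no other count of called genes by over 1.5 times. DESeq2 gave 17 genes jointly (30.6% of all genes), 19 lower in PFC (11.7%), 2 lower in HIP (7.54%) and 6 higher in CPU (5.53%). Without the filter 4 were lower in PFC (4.43%) and 0 in HIP (3.19%). Leave-one-out counts ran from 1 to 13 jointly, 1 to 12 lower and 0 to 1 higher in PFC, 0 to 2 lower in HIP, 0 to 1 higher in NAC and 0 to 11 higher in CPU. In the same order, the shares of all genes were 11.2% to 22.1%, 1.69% to 8.83%, 2.0% to 6.9%, 2.6% to 4.93%, 0.602% to 2.43% and 0.417% to 4.86%. The cause was not tested.

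Log2 fold changes that turned sign belonged to genes not called as reported. Against control they were Sdf2l1 -0.34, Manf -0.24, Erp29 -0.25 and Derl2 -0.29 within the 3-letter form; Sdf2l1 -0.35, Manf -0.27, Erp29 -0.22 and Derl2 -0.20 without stressed 1 to 3; Edem2 0.23, Atf4 0.01 and Ddit3 0.23 within the 1-letter form; Edem2 0.19 and Ddit3 0.07 without stressed 4 and 5; Edem2 0.13 with the block and 0.05 to 0.06 with a library left out; and Ern1 -0.05 with the length trend removed. Against resilient libraries they were Sdf2l1 -0.15, Manf -0.26, Erp29 -0.12, Edem1 -0.27, Derl1 -0.04 and Derl2 -0.17 within the 3-letter form. Without stressed 1 to 3 they were Sdf2l1 -0.17, Manf -0.29, Erp29 -0.16, Edem1 -0.22, Derl1 -0.14 and Derl2 -0.27. Within the 1-letter form they were Edem2 0.09, Atf4 0.28 and Ddit3 0.20, of which Atf4 passed there, and without stressed 4 and 5 Edem2 0.08, Atf4 0.03 and Ddit3 0.18. Edem1 was -0.04 with the naming form as a covariate, -0.08 with the length trend removed and -0.07 to -0.01 with a library left out, and Ddit3 0.01 to 0.05 with a library left out. Depth limits Ern1, which had 8 counts in its lowest library.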
